A study of Homo with 4 samples.

Results

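RAD54L2, ARFIP1, BBX, AFAP1 and DAZAP2 are 5 of the 20263 genes counted by RNA sequencing in H1299, a long-established cell line from a human non-small cell lung cancer. They were picked on the size of their difference between H1299 cells with a hairpin RNA that targets IGF2BP3 (shIGF2BP3) and H1299 cells with a control hairpin (shCtrl), with no numerical limit. Because this contrast chose them, the difference is described here and not tested. The first 4 were higher and DAZAP2 was lower in shIGF2BP3. The question was whether a single transcript or the whole gene carried it. RAD54L2 had a single counted transcript. In ARFIP1, BBX and AFAP1 the sum of the transcripts other than the leading one overlapped between the groups. In ARFIP1 it joined a transcript that was higher in shIGF2BP3 with another that was lower. In DAZAP2 the sum of the other transcripts was lower in shIGF2BP3 too, by less than the leading transcript. The leading transcript is the one with the largest difference, so leaving it out takes away the largest part by choice. How often such sums overlap over all genes was not counted. The files list 42 transcripts for the 5 genes among 95139 in all, and 29 of the 42 had a count in any library. Of these 29, 18 had enough counts for the fit across all transcripts, and 24 of the 42 did not pass that filter or had no count.

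A gene is read out as several transcripts when it uses alternative starts, alternative exons or alternative 3′ ends. Transcripts of a gene share most of their bases, so short reads from the shared bases have to be divided between them by estimation. The summed count of a gene does not depend on that division, unless another gene shares the bases. The summed FPKM of a gene does depend on it, because FPKM divides by the length of each transcript. IGF2BP3, the targeted gene, is an RNA-binding protein that reads N6-methyladenosine and is known for stabilising and localising its target mRNAs. The 5 genes have unrelated roles. RAD54L2 is a nuclear ATPase of the SNF2 family that binds the androgen receptor, ARFIP1 is a membrane-curving protein of the trans-Golgi, BBX is an HMG-box DNA-binding protein, AFAP1 cross-links actin filaments and binds Src, and DAZAP2 is a small proline-rich adaptor protein.

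Each group had 2 libraries of H1299 cells. In the labels both groups have biological replicates 1 and 2, but in the deposited columns the shIGF2BP3 libraries carry the numbers 2 and 3. The study used more than 1 hairpin against IGF2BP3, and nothing states which of them these libraries carry. The libraries are of whole cultures, so a difference in every cell and a larger one in some cells cannot be told apart. Nothing in the labels says how separate the cultures were, so p-values measure only the spread between these libraries, which may be technical.

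Total estimated counts ran from 29709686 to 34817513 per library, and mitochondrially encoded genes took from 9.11% to 17.02% of them. Counts scaled by effective library size are given as CPM, the usual unit of counts per a fixed library size. IGF2BP3 itself measured 41.1 and 32.9 CPM in shCtrl and 26.4 and 24.8 CPM in shIGF2BP3. The groups did not overlap, and the log2 difference was -0.53 (SE 0.17), with an adjusted p of 0.472 from edgeR's quasi-likelihood test over all genes.

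At the level of the gene, the difference between the groups exceeded the spread between the libraries of a group in all 5. RAD54L2 measured 1.63 ± 0.456 CPM (SD, n = 2) in shCtrl and 18.6 ± 0.0583 in shIGF2BP3. The fold difference was 11.4 (log2 3.51, SE 0.27). BBX measured 4.86 ± 1.68 and 37.2 ± 1.05 CPM, which is 7.67-fold higher in shIGF2BP3 (log2 2.94, SE 0.28). ARFIP1 measured 5.15 ± 0.557 and 22.2 ± 0.954 CPM, which is 4.31-fold higher (log2 2.11, SE 0.19). These 3 genes had low counts in shCtrl, between 49 and 205 per library, and higher counts in both shIGF2BP3 libraries, between 510 and 1311.

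AFAP1 measured 14.6 ± 2.36 CPM in shCtrl and 48.5 ± 3.79 in shIGF2BP3, which is 3.33-fold higher (log2 1.74, SE 0.18). DAZAP2 measured 208 ± 13.3 and 72.9 ± 0.974 CPM, which is 2.85-fold lower (log2 -1.51, SE 0.13). In none of the 5 did the groups overlap, but how often that happens over all genes tested was not counted. All 5 passed both limits of the study, a 1.5-fold difference and an unadjusted p no higher than 0.05. Over the 13379 genes tested, 2.54% passed them in the higher direction (340 genes) and 2.78% in the lower direction (372 genes). Scaled by library totals in place of TMM factors, 195 passed as higher and 485 as lower. The members were chosen on this contrast, so nothing is read from their count. By size of the log2 difference among all genes tested they ranked 21 (RAD54L2), 33 (BBX), 71 (ARFIP1), 105 (AFAP1) and 166 (DAZAP2).

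**Figure D1:**
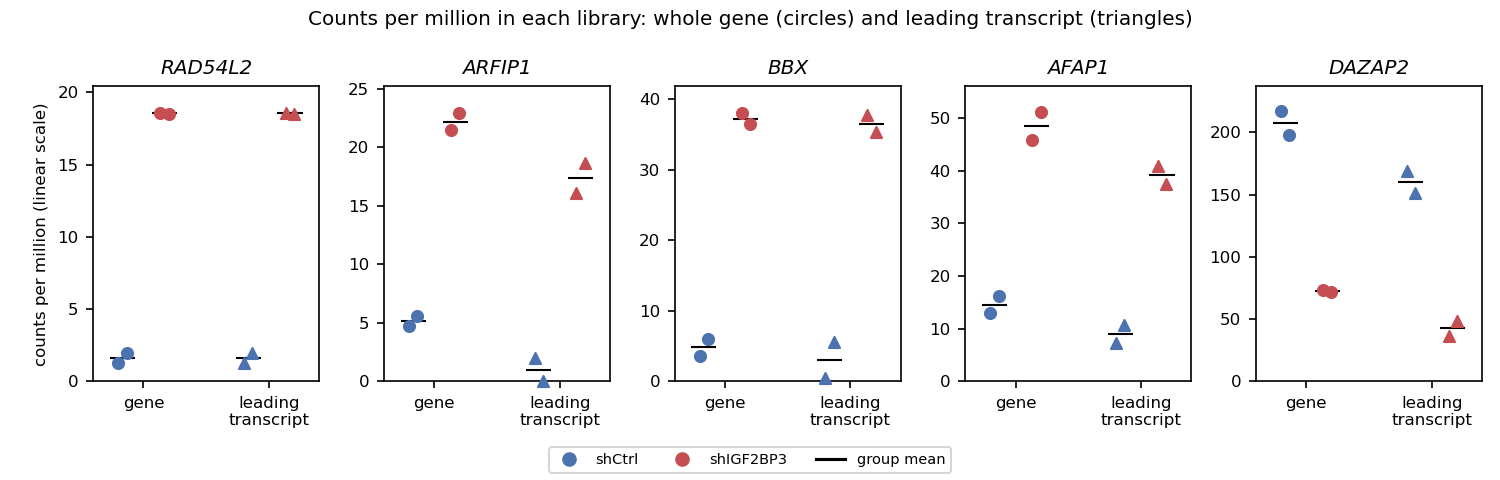
CPM (linear axis from 0) of each gene and of its leading transcript, the transcript with the largest difference between the groups, in each of the 4 libraries (points), with the mean of the 2 libraries of a group (bars). For AFAP1 the gene sits at 12.9 and 16.2 CPM in shCtrl and at 45.8 and 51.2 in shIGF2BP3. Neither the gene nor the leading transcript overlaps between the groups in these 5 genes. They were chosen on this contrast, so nothing is read from that.

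FPKM divides by transcript length and so allows a comparison of levels between genes. In shCtrl, the summed FPKM was 0.143 ± 0.0296 (SD, n = 2) for RAD54L2, 0.913 ± 0.00867 for BBX, 1.67 ± 0.152 for AFAP1, 2.79 ± 0.802 for ARFIP1 and 108 ± 17.6 for DAZAP2. In shIGF2BP3 it was 1.58 ± 0.101 for RAD54L2, 3.67 ± 0.089 for BBX, 5.41 ± 0.171 for AFAP1, 6.05 ± 0.49 for ARFIP1 and 38.6 ± 6.44 for DAZAP2. The order of the genes was the same in both groups, and no neighbours in it overlapped in their libraries of a group. The 4 genes that were higher in shIGF2BP3 had low levels in shCtrl. Their shCtrl FPKM was above that of 4.1% (RAD54L2), 17.6% (BBX), 25.1% (AFAP1) and 33.9% (ARFIP1) of the genes tested, against 94.9% for DAZAP2. The shCtrl level is part of the contrast that chose the genes, so nothing is read from these positions.

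The choice of scale altered the size of the difference. The ratio of the group means of summed FPKM was 11.0 for RAD54L2, 3.22 for AFAP1 and 2.8 (lower) for DAZAP2, close to the folds from counts. It was 2.17 for ARFIP1, against 4.31 from counts, and 4.02 for BBX, against 7.67. With limma on log2(FPKM + 1), which understates the change of low genes, the log2 difference was 1.17 for RAD54L2, 0.91 for ARFIP1, 1.29 for BBX and 1.26 for AFAP1. A long transcript yields more counts per molecule than a short one. The leading transcripts of ARFIP1 (4.03 kb) and BBX (10.5 kb) were longer than ENST00000356064 of ARFIP1 (1.54 kb) and ENST00000325805 of BBX (4.24 kb). The part of length in the gap between the scales was not tested.

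The plot of FPKM by transcript divides these levels over the 29 counted transcripts, with the least abundant of BBX and DAZAP2 summed.

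**Figure D2:**
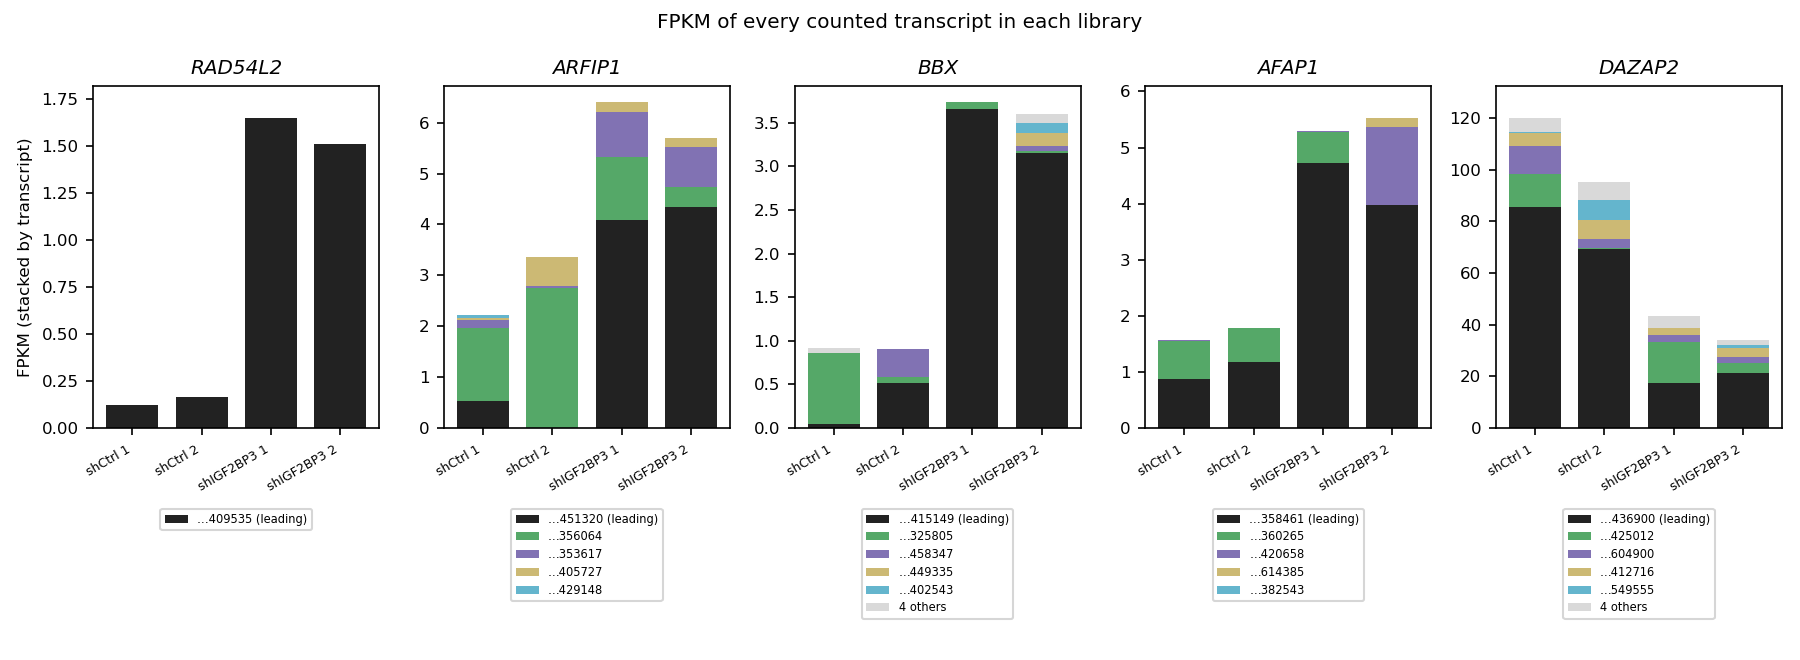
FPKM of each counted transcript, stacked, in the 4 libraries (x axis), with a separate linear axis for each gene. Black is the leading transcript, colours are the next 4 by summed FPKM, grey is the sum of any others, and the legend gives the last 6 digits of the Ensembl transcript number. The black segment of BBX is 0.0443 and 0.515 FPKM in shCtrl and 3.66 and 3.15 in shIGF2BP3.

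RAD54L2 lies on the plus strand of chromosome 3 (GRCh38, positions 51541580 to 51668667). Of its 2 listed transcripts, ENST00000432863 had no count in any library, and so 1 transcript carried the whole difference because it was the single one measured. ENST00000409535, with a length of 11.5 kb implied by its counts and FPKM, had 49 and 66 counts in shCtrl and 642 and 510 in shIGF2BP3. Its FPKM was 0.122 and 0.163 in shCtrl and 1.65 and 1.51 in shIGF2BP3. Both shCtrl libraries were low and both shIGF2BP3 libraries high, with no overlap. A gene on the same strand, TEX264, overlaps the end of RAD54L2 by 5975 bases. The 1 transcript of TEX264 that reaches into it, ENST00000419358, had between 5 and 12 counts per library.

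ARFIP1 lies on the plus strand of chromosome 4 (152779937 to 152912357), and all 5 of its transcripts had a count. Their starts fall within 48 bases of each other, so they differ in where they end and in what lies between. ENST00000451320, which ends furthest downstream (4.03 kb), had 76 and 0 counts in shCtrl and 557 and 516 in shIGF2BP3. In FPKM that is 0.537 and 0 against 4.09 and 4.35. Both shIGF2BP3 libraries were high, while the shCtrl libraries were low and unequal. ENST00000353617 (3.66 kb), which ends 448 bases before it, had 20 and 3 counts in shCtrl and 109 and 85 in shIGF2BP3, again without overlap.

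ENST00000356064, the shortest of the ARFIP1 transcripts with an implied length (1.54 kb), ends 2113 bases before the furthest end. It had 76 and 147 counts in shCtrl and 64 and 18 in shIGF2BP3. Again the groups did not overlap, but in the opposite order to the gene. They came close, at 2.02 CPM in shCtrl replicate 1 and 1.85 CPM in shIGF2BP3 replicate 1. The log2 difference was -1.31 (SE 0.8), and this transcript was not called. ENST00000405727 (1.94 kb) had 3 and 38 counts in shCtrl and 13 and 11 in shIGF2BP3, with overlapping groups. ENST00000429148 had 4 counts in shCtrl replicate 1 and none elsewhere.

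Set out as shares of the summed FPKM of ARFIP1, ENST00000356064 held 64.2% and 82.2% in shCtrl and 19.2% and 6.8% in shIGF2BP3. ENST00000451320 held 24.2% and 0% in shCtrl and 63.9% and 76.2% in shIGF2BP3. The transcript with the largest share thus differed between the groups and was the same in both libraries of a group. The 2 transcripts that end within 500 bases of the furthest 3′ end summed to 0.689 and 0.0231 FPKM in shCtrl and to 4.97 and 5.14 in shIGF2BP3. The other 3 summed to 1.54 and 3.33 FPKM in shCtrl and to 1.43 and 0.57 in shIGF2BP3. Transcripts with the distal end were higher, and those with earlier ends were not, in the shIGF2BP3 libraries.

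Without ENST00000451320 the log2 difference of ARFIP1 was 0.20 (SE 0.39), against 2.11 for the gene. The remaining transcripts summed to 103 and 188 counts in shCtrl and to 186 and 114 in shIGF2BP3, and the groups overlapped. Among them, ENST00000353617 had means of 0.31 CPM in shCtrl and 3.12 in shIGF2BP3, and ENST00000356064 had 3.18 and 1.25. The sign of this remainder was not stable. It was -0.46 by the ratio of FPKM means, -0.22 without shCtrl replicate 1 and 0.80 without shCtrl replicate 2. The leading transcript accounted for 76.7% of the summed absolute differences in CPM over the gene's transcripts. Its own log2 difference was 4.10 with an SE of 2.45, and 1 shCtrl library had no count of it. Without shCtrl replicate 1, which leaves shCtrl at a count of 0, the fitted value was 12.14 and depended on the prior count. With limma on log2(FPKM + 1) it was 2.07.

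BBX lies on the plus strand of chromosome 3 (107522936 to 107811324). It has the most listed transcripts of the 5 genes, 21, of which 12 had no count. ENST00000415149 (10.5 kb), which ends furthest downstream, had 17 and 189 counts in shCtrl and 1300 and 975 in shIGF2BP3. ENST00000325805 (4.24 kb), which ends 5463 bases earlier, had 118 and 10 counts in shCtrl and 11 and 4 in shIGF2BP3. In both shIGF2BP3 libraries the first was high, without overlap, and the second was high only in shCtrl replicate 1.

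The remaining 7 counted transcripts of BBX were near the lowest counts. ENST00000402543 had 17 counts in shIGF2BP3 replicate 2 and none elsewhere. ENST00000458347 had 6 counts in shCtrl replicate 2 and 1 in shIGF2BP3 replicate 2. The others, ENST00000427402, ENST00000413213, ENST00000456817, ENST00000449335 and ENST00000431630, had at most 4 counts in any library and were each seen in a single library.

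The 2 shCtrl libraries of BBX had a summed FPKM of 0.919 and 0.907 (3.67 and 6.05 CPM), and divided it differently. ENST00000325805 held 88.9% of it in replicate 1 and 7.5% in replicate 2, and ENST00000415149 held 4.8% and 56.8%. A further 35.7% of the FPKM in replicate 2 came from the 6 counts of ENST00000458347. In shIGF2BP3 the division was alike, with 98.0% and 87.4% for ENST00000415149. Which transcript BBX used in shCtrl therefore was not settled by these libraries, and the difference between the groups in ENST00000415149 (log2 3.64, SE 1.38) had a wider error than that of the gene. Without shCtrl replicate 2 the difference of this transcript was 6.33.

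Without its leading transcript, BBX had 121 and 16 counts in shCtrl and 11 and 30 in shIGF2BP3. This remainder had a log2 difference of -1.42 (SE 0.99), and the groups overlapped. It was 0.58 without shCtrl replicate 1 and -2.53 without shIGF2BP3 replicate 2, so its sign rested on single libraries. ENST00000415149 accounted for 94.2% of the summed absolute CPM differences of BBX, the largest share among the 4 genes with more than 1 counted transcript.

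AFAP1 lies on the minus strand of chromosome 4 (7758714 to 7939926) and was matched to its identifier ENSG00000196526 by position. ENST00000358461 (8.85 kb) had 272 and 365 counts in shCtrl and 1411 and 1033 in shIGF2BP3. ENST00000360265 (8.84 kb), which begins 67613 bases downstream of it and ends within 1 base of it, had 209 and 184 counts in shCtrl and 167 and 1 in shIGF2BP3. ENST00000420658 (9.04 kb), with the same start and end as ENST00000358461, had 3 and 0 counts in shCtrl and 3 and 373 in shIGF2BP3. Of these, the first was high in both shIGF2BP3 libraries. The other two differed most between the shIGF2BP3 libraries themselves, the second being near 0 and the third being high in replicate 2 alone.

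Grouped by start, the AFAP1 transcripts from the first start summed to 0.888 and 1.18 FPKM in shCtrl and to 4.73 and 5.36 in shIGF2BP3. Those from the later starts summed to 0.68 and 0.598 FPKM in shCtrl and to 0.561 and 0.17 in shIGF2BP3. The first sum was higher in both shIGF2BP3 libraries, without overlap. The second was lower in both, but came close in shIGF2BP3 replicate 1, at 0.561 FPKM against 0.598 in shCtrl replicate 2. In shIGF2BP3 replicate 2, 0.159 of the 0.17 FPKM came from 2 counts of ENST00000614385. ENST00000360265, the main transcript from a later start, had a log2 difference of -1.15 (SE 2.02) and was not called. The share of the first start was 56.6% and 66.4% in shCtrl and 89.4% and 96.9% in shIGF2BP3. ENST00000614385 and ENST00000382543, the remaining transcripts, had at most 2 counts in any library.

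Without ENST00000358461 the log2 difference of AFAP1 was 0.74 (SE 0.48). The remainder measured 5.67 and 5.46 CPM in shCtrl and 4.95 and 13.7 CPM in shIGF2BP3. It overlapped between the groups, and its high value in shIGF2BP3 replicate 2 came from ENST00000420658, whose start and end are those of the leading transcript. Without that library the difference was -0.17, and without shIGF2BP3 replicate 1 it was 1.30. ENST00000358461 accounted for 75.4% of the summed absolute CPM differences.

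DAZAP2 lies on the plus strand of chromosome 12 (51238292 to 51271362), and all 9 of its transcripts were counted and kept. ENST00000436900 (2.13 kb) had 6348 and 5130 counts in shCtrl and 1268 and 1335 in shIGF2BP3. In FPKM that is 85.4 and 69.1 against 17.6 and 21.3. Both shIGF2BP3 libraries were low, and the log2 difference was -1.89 (SE 0.22). This transcript held 71.2% and 72.6% of the summed FPKM in shCtrl and 40.8% and 62.6% in shIGF2BP3.

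ENST00000412716 (3.06 kb) had 535 and 786 counts in shCtrl and 289 and 290 in shIGF2BP3. ENST00000604900 (1.23 kb) had 461 and 137 counts in shCtrl and 111 and 86 in shIGF2BP3. Both were lower in shIGF2BP3 without overlap, as were 22.7% of all transcripts tested. Their log2 differences were -0.96 (SE 0.38) and -1.35 (SE 0.71), and neither was called in the edgeR fit across all transcripts. ENST00000604900 also overlaps a gene on the opposite strand, described below. Whether DAZAP2 transcripts besides the leading one were lower is therefore not settled transcript by transcript. ENST00000425012 (1.32 kb) had 585 and 35 counts in shCtrl and 695 and 153 in shIGF2BP3, which is high in 1 library of each group and low in the other.

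The other 5 DAZAP2 transcripts overlapped between the groups. ENST00000449723 (2.47 kb) had 86 and 241 counts in shCtrl and 92 and 62 in shIGF2BP3. ENST00000549555 (1.03 kb) had 25 and 274 in shCtrl and 0 and 34 in shIGF2BP3, with a single high library, shCtrl replicate 2. ENST00000439799 (0.837 kb), ENST00000551313 (0.709 kb) and ENST00000549732 (0.72 kb) had between 6 and 64 counts in every library.

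Without ENST00000436900, DAZAP2 measured 48.1 and 46.7 CPM in shCtrl and 36.8 and 23.7 CPM in shIGF2BP3. The log2 difference of this remainder was -0.65 (SE 0.23), against -1.51 for the gene. With a library left out it ran from -0.36 to -0.999, the latter without shIGF2BP3 replicate 1. DAZAP2 was the one gene of the 5 whose remainder did not overlap between the groups and lay in the direction of the gene. The leading transcript accounted for 81.8% of the summed absolute CPM differences.

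A gene on the opposite strand, ENSG00000170545, which by its largest RefSeq overlap is SMAGP, overlaps DAZAP2 by 26333 bases. It reaches ENST00000604900 and ENST00000425012 and none of the other 7 DAZAP2 transcripts. Whether counting used strand is not given in the sources used here, so for those 2 transcripts reads of the 2 genes cannot be told apart. The other 7 summed to 189 and 193 CPM in shCtrl and to 50.2 and 63.5 CPM in shIGF2BP3, a log2 ratio of group means of -1.75. Without the leading transcript, the 6 others clear of SMAGP summed to 20.3 and 41.6 CPM in shCtrl and to 13.5 and 15 CPM in shIGF2BP3, a log2 ratio of -1.12. SMAGP measured 26.3 and 22.6 CPM in shCtrl and 19.8 and 18.2 CPM in shIGF2BP3, with a log2 difference of -0.36 (SE 0.17) and an adjusted p of 0.495 from edgeR over all genes.

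**Figure D3:**
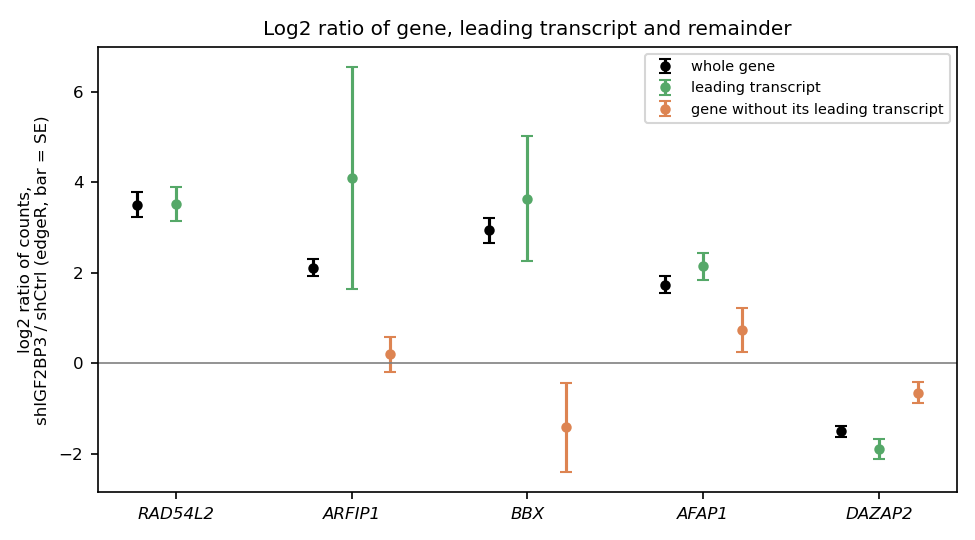
Log2 ratio of shIGF2BP3 over shCtrl from edgeR on counts (y axis, bars are SE, 2 libraries per group) for the whole gene, for its leading transcript and for the sum of its other transcripts. RAD54L2 has no other counted transcript, and the remainder lies at 0.20 for ARFIP1, -1.42 for BBX, 0.74 for AFAP1 and -0.65 for DAZAP2.

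Across the 5 genes the leading transcript held most of the absolute difference in CPM. It was also the transcript with the largest mean share of FPKM in shCtrl in 3 of the 5, RAD54L2, AFAP1 and DAZAP2. RAD54L2 had a single counted transcript, so for that gene both were fixed in advance. How often the leading transcript has the largest shCtrl share over all genes was not counted. Its share of the summed absolute CPM differences reached at least 80% in 2 of the 4 genes with more than 1 counted transcript, BBX and DAZAP2, and in 1 of them without shCtrl replicate 1. The same share was reached by 30.9% of the 10791 tested genes with at least 2 counted transcripts, and by 46.1% of the 575 such genes past both limits. The median share was 64.4% over the 10791 genes and 78.2% over the 575. The 4 genes ran from 75.4% to 94.2%, a range that holds the median of the called genes.

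Of the 18 kept transcripts of the 5 genes, 5 were higher without overlap, 5 were lower without overlap and 8 overlapped. Over all 37927 transcripts tested, 17.5% were higher without overlap and 22.7% were lower. At the limits of 1.5-fold and p 0.05, 3 were called higher (ENST00000409535 of RAD54L2, ENST00000353617 of ARFIP1 and ENST00000358461 of AFAP1) and 1 was called lower (ENST00000436900 of DAZAP2), against 2.5% and 3.79% of all transcripts. Nothing is read from these counts, because the contrast chose the genes. The leading transcripts of ARFIP1 and BBX were not among the 4, although their groups did not overlap.

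The spread between libraries was compared for genes and transcripts. The coefficient of variation that edgeR fitted in common was 85% over transcripts and 22.8% over genes. Between the shCtrl libraries, the coefficient of variation of the CPM was 10.8% for ARFIP1 and 141% for its leading transcript, and 34.6% for BBX and 120% for its leading transcript. It was 16.2% for AFAP1 and 27.8% for its leading transcript, 6.42% and 7.7% for DAZAP2, and 28% for both in RAD54L2. Between the shIGF2BP3 libraries it was 19.5% for the leading transcript of DAZAP2, against 1.34% for the gene. In the other genes it was from 0.314% (RAD54L2) to 10.5% (ARFIP1) for the leading transcript there, and for AFAP1 the leading transcript (6.08%) varied less than the gene (7.82%). No transcript of the 37927 had an adjusted p under 0.05 by edgeR (0 transcripts, smallest adjusted p 0.306), whereas 2493 had an unadjusted p at or under 0.05 and DESeq2 gave 2662 an adjusted p under 0.05.

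The major transcript by FPKM was compared between libraries over all genes. Among the 10791 genes with at least 2 counted transcripts it differed between the shCtrl libraries in 25.1% and between the shIGF2BP3 libraries in 25.4%. Between a shCtrl and a shIGF2BP3 library it differed in 24.9% to 27.8%. Of the 5 genes, BBX was among those whose major transcript differed between the shCtrl libraries, and ARFIP1, AFAP1 and DAZAP2 were not.

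Implied transcript length was greater for the leading transcripts of the 4 higher genes than for that of DAZAP2. Leading transcripts were chosen on counts not divided by length, so this choice was not independent of length. The comparison below is with all transcripts tested, not with the leading transcripts of other genes. The leading transcripts of RAD54L2, BBX, AFAP1 and ARFIP1 were longer than 98.3%, 97.8%, 96.1% and 75.1% of the transcripts tested, and that of DAZAP2 was longer than 45.7%. Over all transcripts the median log2 difference moved with length, from -0.11 at up to 1 kb (7166 transcripts) to 0.11 above 8 kb (2019 transcripts). The share called higher did not rise steadily with length. It was 1.55% up to 1 kb, 2.16% from 1 to 2 kb, 3.19% from 2 to 4 kb, 2.72% from 4 to 8 kb and 2.48% above 8 kb. The share called lower was 2.99%, 3.91%, 4.72%, 3.44% and 1.83% in the same classes. The differences of the 4 leading transcripts, 2.15 to 4.10 on the log2 scale, lay outside the quartiles of their length classes. These genes and transcripts were chosen for large differences, so nothing is read from that position. The part of length in the differences was not tested.

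**Figure D4:**
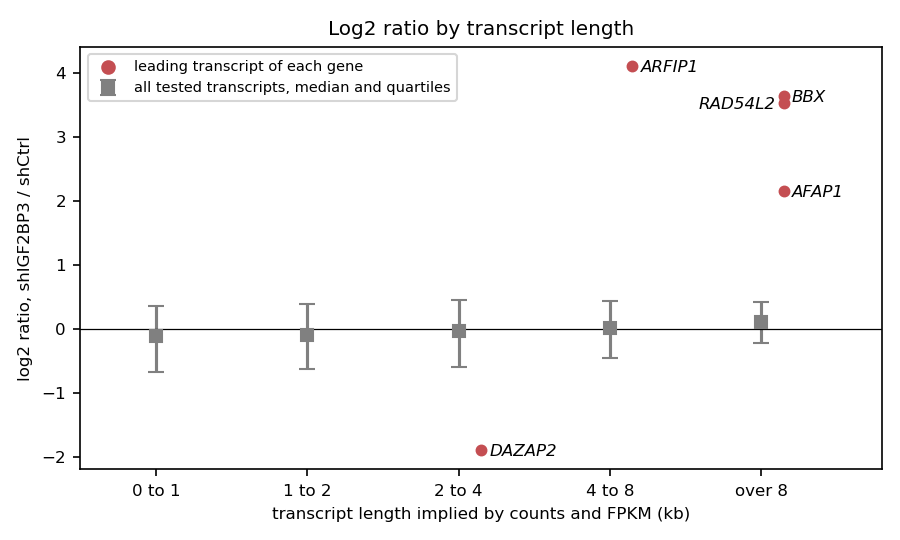
Log2 ratio of shIGF2BP3 over shCtrl (edgeR, y axis) by transcript length implied by counts and FPKM (x axis, 5 classes in kb). Grey squares and bars are the median and quartiles of all tested transcripts in a class and red points are the 5 leading transcripts, with grey medians from -0.11 to 0.11 and red points at -1.89 and from 2.15 to 4.10.

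The genes next to the 5 in the genome were examined for a difference that reached beyond the member. Of those overlapping a member and the nearest on each side, 7 had enough counts to be tested. Of these 7 genes, 0 passed both limits by edgeR, and 0 had an unadjusted p under 0.05. With 2.54% of all genes called higher and 2.78% lower, nothing is read from a count of 0 in 7 genes. TEX264, which overlaps RAD54L2, had a log2 difference of -0.04 (SE 0.14), and DCAF1, upstream of RAD54L2 on the opposite strand, one of -0.16 (SE 0.14). TIGD4, which begins 173 bases from the start of ARFIP1 on the opposite strand, had 0.44 (SE 0.31). CD47, the nearest tested gene to BBX, had 0.31 (SE 0.14), SORCS2 beside AFAP1 had -0.06 (SE 0.29) and POU6F1 beside DAZAP2 had -0.10 (SE 0.22). Their adjusted p-values by edgeR ran from 0.483 (CD47) to 0.944 (SORCS2). GRM2, FHDC1, CCDC54 and BIN2 had between 0 and 8 counts per library and were not tested.

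Of 46 relatives and partners of the 5 proteins, 44 were tested, 1 was called higher and 0 lower, beside 2.54% and 2.78% of all genes tested, and their median log2 difference was 0.02, beside -0.002 over all 13379 genes. The lists were 9 genes for RAD54L2 (8 tested), 12 for ARFIP1 (12 tested), 10 for BBX (10 tested), 10 for AFAP1 (10 tested) and 6 for DAZAP2 (5 tested), with 1 gene on 2 lists. That gene, TCF7L2, a transcription factor of the Wnt pathway that carries an HMG box and is a known partner of DAZAP2, was the 1 called higher. It measured 10.7 and 8.77 CPM in shCtrl and 17.4 and 17.3 CPM in shIGF2BP3, a log2 difference of 0.83 (SE 0.19) with an unadjusted p of 0.00553 and an adjusted p of 0.472 by edgeR. It was not called with limma on FPKM.

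The paralogs were measured in the same fit. RAD54L and RAD54B, the helicase-like relatives of RAD54L2 that act in homologous recombination, had log2 differences of 0.00 (SE 0.17) and 0.44 (SE 0.37). ARFIP2, the second arfaptin, had -0.22 (SE 0.19), and HBP1, an HMG-box repressor related to BBX, had -0.14 (SE 0.23). AFAP1L1 and AFAP1L2, the relatives of AFAP1, had -0.56 (SE 0.20) and -0.13 (SE 0.53). AFAP1L1 measured 9.52 and 10.6 CPM in shCtrl and 7.36 and 6.32 CPM in shIGF2BP3, in the opposite direction to AFAP1, with an unadjusted p of 0.0349 and an adjusted p of 0.472 by edgeR. It missed the limit of 1.5-fold, and passed it when library totals were used. The other 5 paralogs did not pass both limits, and the difference between a member and its paralog was not tested.

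Profiles over the 4 libraries were compared by the Euclidean distance between log2(CPM + 1) values after subtraction of each gene's shCtrl mean. BBX and RAD54L2 were each other's nearest gene, at a distance of 0.30. AFAP1 lay nearest to RHNO1 (0.07) and TIMM8B (0.33), and ARFIP1 to RHNO1 (0.33) and AFAP1 (0.36). DAZAP2 lay nearest to POLR3G (0.13) and SRP9 (0.14). RHNO1 measured 33.9 and 41.4 CPM in shCtrl and 114 and 134 CPM in shIGF2BP3, and SRP9 measured 179 and 151 CPM and 60.3 and 53.3 CPM. The next nearest gene to both RAD54L2 (0.89) and BBX (0.79) was CFAP298-TCP10L, a readthrough gene that shares bases with its neighbours and had 0 counts in both shCtrl libraries, with 6.46 and 3.16 CPM in shIGF2BP3. These distances describe 4 libraries and carry no test. With the shCtrl mean subtracted, a profile is mostly the contrast that chose the members, so nothing is read from members lying near each other. The added 1 also reduces the differences of low genes.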

How the data were processed

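RNA was sequenced from H1299 cells, and the sample labels gave the groups, shCtrl (n = 2) and shIGF2BP3 (n = 2). The values deposited by the authors were estimated counts for each transcript, whole and not normalized, and FPKM for each transcript, which accounts for length and library size. The submitters' processing notes name CASAVA, FastQC, Trimmomatic, HISAT2, bedtools and GRCh38. The counter, the annotation and the use of strand are not given in the sources used here. A count of 1 can stand for a fraction of a read. Depth was 29709686 to 34817513 counts per library.

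Counts and FPKM were summed over the transcripts of a gene. Symbols were given by position against the RefSeq table (GRCh38), where a RefSeq and an Ensembl gene were each other's best overlap, with at least 0.5 of the joint length shared and a lead of 0.2, for 18222 of 20263 genes. Transcripts and genes were fitted separately in R 4.3.3 with edgeR 4.0.16 (TMM, filterByExpr at counts of 10 and a total of 15, glmQLFit and glmQLFTest, prior count 0.125), with Benjamini-Hochberg adjustment over all transcripts or genes kept. The SE is the log2 difference divided by the square root of its F statistic. CPM used the effective library sizes of the gene fit for transcripts and genes alike. Calls needed a 1.5-fold difference and an unadjusted p no higher than 0.05, the limits of the study. The leading transcript has the largest absolute difference in mean CPM. Implied length is the median over libraries of count divided by FPKM and total count, for counts of at least 10. The edgeR fits were also run on simulated counts. The changes planted in transcripts there were far larger than 1.5-fold, so that run says nothing about smaller ones.

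The members, the lists of relatives and partners and the tests were chosen with earlier results of these data known. Named genes were the 5 members and their counted transcripts, IGF2BP3, the paralogs, those relatives and partners past both thresholds, the overlapping and flanking genes, and the 2 nearest profiles with a symbol for each member. The fits were repeated with RLE factors, other filters, DESeq2 1.42.0, library totals, limma 3.58.1 on log2(FPKM + 1) and log2(FPKM + 0.1), a replicate block, each library left out, and other thresholds. A flanking gene is not reported here. No sequence is printed, because none was used here.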

Additional observations from a re-analysis of the deposited data

How the results depend on the processing

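All 5 genes passed both limits under every one of the 14 alternatives tried, the replicate block included. The contrast chose these genes, so nothing is read from their passing or from the calls of their transcripts. Over all 37927 transcripts tested, 950 passed as higher and 1438 as lower, against 2134 and 2636 with DESeq2. The replicate block gave 691 and 916, and limma on log2(FPKM + 1) without a filter gave 774 and 1377 of 63215. Of the transcripts of the 5 genes, 4 passed, against 8 with DESeq2, 7 with that limma fit and 3 with the replicate block. This count also moved with a library left out. ENST00000409535 of RAD54L2, ENST00000358461 of AFAP1 and ENST00000436900 of DAZAP2 passed under all of these, while ENST00000353617 of ARFIP1 was lost with library totals, with the block and without either shIGF2BP3 replicate, and was not tested under the stricter filters on counts and FPKM. The leading transcripts of ARFIP1 and BBX passed with DESeq2, with all limma fits on FPKM and without either shCtrl replicate. Same-numbered libraries did not deviate together (correlation 0.022 over 13379 genes), so the block rests on shared numbers alone. The count of genes whose leading transcript held at least 80% of the difference was 2, against 1 by FPKM, 4 at a limit of 50%, 1 at a limit of 90% and 1 to 3 with a library left out. Of the relatives, partners and neighbours, 51 tested together, 1 passed. Under alternatives chosen after seeing the data, 0 passed with any limma fit on FPKM or at a 2-fold limit, and 2 by library totals. The count also moved with a library left out. Over all 13379 genes, 340 were called higher and 372 lower, against 195 and 485 by library totals. With limma on log2(FPKM + 1) it was 127 and 339 of 10947, so nothing is read from these small counts. The difference without the leading transcript changed sign in 3 genes. For ARFIP1 it was 0.20 and became -0.46 by FPKM and -0.22 to 0.80 with a library left out. With a library left out it ran from -2.53 to 0.58 for BBX and from -0.17 to 1.30 for AFAP1. No gene or leading transcript changed sign. Of 157 single differences under alternatives, 124 moved by less than the spread between libraries, 28 by more, and 5 changed sign. The coefficient of variation was 85% over transcripts and 22.8% over genes, and the parts of depth and of the division of shared reads in it were not tested.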
